A study of Mus musculus with 24 samples.

Results

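Repeat-masked tiles are windows of 100 bases in which the mouse reference sequence is largely marked as repeated DNA. A tile was taken as masked when 50 or more of its bases were soft-masked, that is written in lower case, in the mm10 sequence and when it lay more than 2 kb from every curated RefSeq transcription start. Of the 758685 tiles measured in liver, brain and heart alike, 144498 (19.0%) met this rule, and all of them lay on the 19 autosomes. Methylation was measured by enhanced reduced representation bisulphite sequencing (RRBS), which cuts DNA with restriction enzymes and reads the CpGs near the cuts, in 24 libraries. The libraries came from inbred C57Bl/6J mice of both genders aged 24 weeks, with 12 libraries of liver, 6 of brain and 6 of heart, none of them from treated or mutant animals. The brain DNA came from a rostral section, the heart DNA from the apex and the liver DNA from the left lobe, so that each level is a mean over all cell types of the piece taken. The columns of levels give the tissue but neither the mouse nor its gender, and brain and heart came from mice that also gave liver. Between-tissue tests therefore treated libraries as independent although some share a mouse. The read depth behind a level is unknown, since only fractions were deposited. As a check on the tissues, mean levels within 1 kb of the starts of marker genes were lowest in the tissue of the list for 3 of 3 measured liver genes, 4 of 6 heart genes and 6 of 10 brain genes. The 4 brain genes and the 2 heart genes that did not follow this order included Mbp, Nrgn, Myh7 and Nppa.

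Much of a mammalian genome consists of copies of transposable elements, together with short tandem repeats. In somatic cells the CpGs of such copies are generally methylated by the DNA methyltransferases, and methylated CpGs are lost over evolutionary time because deamination turns CG into TG or, read on the other strand, CA. CpG-rich stretches that escape methylation are mostly CpG islands at gene starts, and unmethylated CpG-poor stretches away from starts are a feature of enhancers. No annotation of repeat classes was used here, so that groups of masked tiles are described by their sequence and not by a repeat name.

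Grouping by sequence alone, through shared runs of 20 bases, put 53667 masked tiles (37.1%) into 10 groups. A tile joined a group by holding any of its shared runs, so that members need not be near copies over their whole length. One typical tile of each of the 5 groups that bear most on the levels is shown, chosen as a tile holding the most shared 20-base runs of its group, on the strand of the group's commonest run. They are the largest group (group 1), a CpG-rich group (group 3), the group with the highest levels (group 4) and the 2 groups with the lowest levels in liver and heart (groups 5 and 9). CpGs are in capitals, and coordinates are mm10.
group 1, chr7:16552101-16552200, plus strand: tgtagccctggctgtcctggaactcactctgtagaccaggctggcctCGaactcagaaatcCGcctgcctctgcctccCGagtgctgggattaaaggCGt
group 3, chr1:33407601-33407700, plus strand: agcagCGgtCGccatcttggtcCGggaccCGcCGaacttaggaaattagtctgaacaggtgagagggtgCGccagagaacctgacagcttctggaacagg
group 4, chr1:8244201-8244300, plus strand: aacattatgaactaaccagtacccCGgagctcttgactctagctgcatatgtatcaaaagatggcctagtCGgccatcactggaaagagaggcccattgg
group 5, chr1:18803501-18803600, minus strand: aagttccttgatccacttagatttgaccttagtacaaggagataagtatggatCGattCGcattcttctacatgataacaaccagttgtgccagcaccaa
group 9, chr1:4020801-4020900, plus strand: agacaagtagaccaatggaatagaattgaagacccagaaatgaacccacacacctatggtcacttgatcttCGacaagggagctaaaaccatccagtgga
The tile of group 9 holds a single CpG, and 31-base runs of the kind it carries occurred a median of 12266 times in the genome. The tile of group 3 holds 6 CpGs, and its 31-base runs occurred a median of 4456 times.

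Masked tiles were highly methylated in each tissue, most so in brain and least in heart. Over the 12 liver libraries the mean level ran from 80% to 81.3% with a median of 81.0%, giving 80.9% ± 0.383 (SD). Brain libraries lay between 81.0% and 84.5%, at 83.1% ± 1.17 (SD, n = 6). Heart libraries lay between 75.5% and 76.2%, at 75.7% ± 0.288 (SD, n = 6). No heart library reached the lowest liver or brain library, whereas the lowest brain library, at 81.0%, lay inside the liver range. Brain exceeded liver by 2.20 points (exact two-sided permutation test over libraries, p = 4.3e-04, adjusted over the 3 pairs 6.5e-04), heart was 5.23 points below liver (difference -5.23, exact permutation p = 5.4e-05, adjusted 1.6e-04), and brain exceeded heart by 7.43 points (exact permutation p = 0.0022, adjusted 0.0022, the smallest value that 6 against 6 libraries can give). The distribution was skewed, so that the median tile stood higher than the mean, at 87.8% in liver, 88.7% in brain and 82.4% in heart. Tiles with an intermediate level of 20 to 70% made up 18.2% of masked tiles in liver, 14.9% in brain and 26.9% in heart.

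Masked tiles were more methylated than tiles without any masked base at the same distance from a start. For this comparison the 306205 unmasked tiles more than 2 kb from a start were weighted to the CpG numbers and distance classes of the masked tiles, and their levels were then 73.8% in liver, 72.9% in brain and 66.9% in heart. The masked tiles stood 7.09 ± 0.221 points (SD) higher in liver, in 12 of 12 libraries (exact sign-flip permutation p = 4.9e-04, adjusted 0.0015). They stood 10.2 ± 0.568 points higher in brain and 8.80 ± 0.0570 points higher in heart, in 6 of 6 libraries each (exact sign-flip permutation p = 0.031 in both, the smallest that 6 libraries can give). The excess differed between tissues, by 3.13 points between brain and liver, 1.71 between heart and liver and 1.42 between brain and heart (exact permutation tests, adjusted p = 8.1e-05, 8.1e-05 and 0.0022). It was far smaller between neighbours, which could be compared for only a part of the masked tiles. In 5313 pairs of a masked tile and the nearest unmasked tile within 300 bp with the same CpG class, a comparison added after seeing the data, masked tiles were higher by 0.597 ± 0.150 points in liver, 1.53 ± 0.226 in brain and 1.94 ± 0.0420 in heart (SD over 12, 6 and 6 libraries), again in every library. In liver the masked tiles of these pairs stood at 76.8% and the unmasked at 76.2%, beside 80.9% and 73.8% in the full comparison. The pairs are thus a subset with other levels, not the same tiles compared locally. Among these pairs the excess in brain was 0.416 points below that in heart (brain minus heart -0.416, exact permutation, adjusted p = 0.013), which turns the order of these tissues round.

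**Figure D1:**
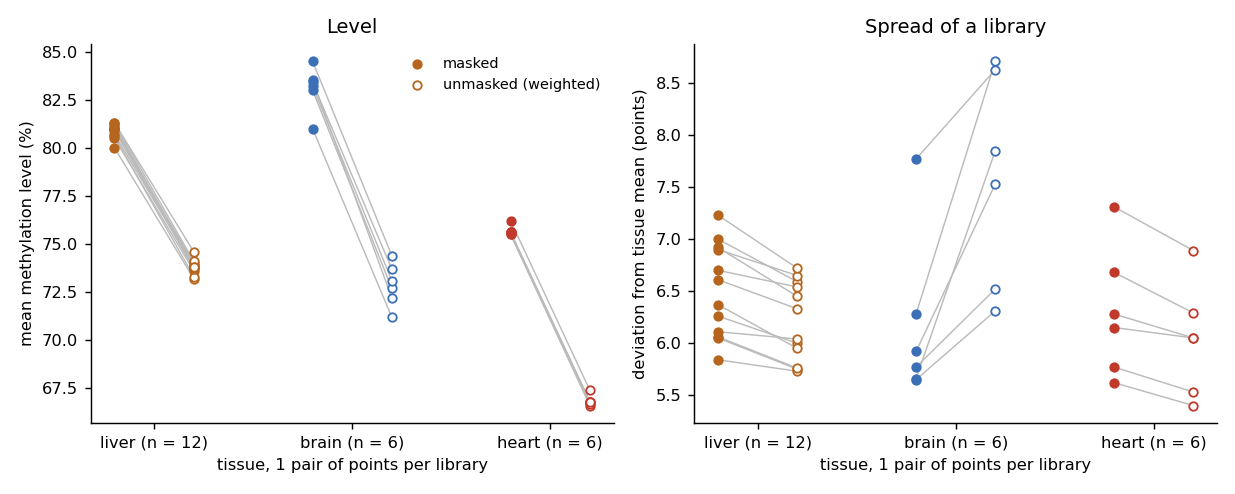
Mean methylation level (left, %) and deviation from the tissue mean (right, percentage points) of every library over masked tiles (filled) and over unmasked tiles weighted to the same CpG numbers and distances (open), with a line joining the values of a library. Every library had the higher level over masked tiles; the deviation was higher over masked tiles in each liver and heart library and lower in each brain library.

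The excess of masked tiles grew with the number of CpGs. Among masked tiles with 1 CpG, of which there were 47334, liver stood at 75.1% ± 0.604 (SD), against 73.0% in unmasked tiles. The level of masked tiles rose to 81.0% with 2 CpGs, 84.6% with 3, 86.2% with 4 and 86.9% with 5 to 6, and was 85.8% with 7 or more. Unmasked tiles went the other way at the CpG-rich end, from 76.5% with 3 CpGs to 74.5% with 5 to 6 and 50.4% with 7 or more. The liver excess thus ran from 2.10 points at 1 CpG to 12.3 at 5 to 6 CpGs and 35.4 at 7 or more, in 12 of 12 libraries each time (exact sign-flip permutation tests, adjusted over 21 comparisons of class and tissue, p = 0.0017). In brain it ran from 4.78 points at 1 CpG to 38.8 at 7 or more, and in heart from 3.09 to 35.9 (exact sign-flip permutation tests, adjusted p = 0.031 in each class). The 6075 masked tiles with 7 or more CpGs were at 70% or more in liver in 91.7% of cases, against 41.2% of the 13188 unmasked tiles of that class. The 237 masked tiles with no CpG in the reference gave no steady sign, with an excess of -0.788 points in liver, 3.63 in brain and 2.03 in heart.

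**Figure D2:**
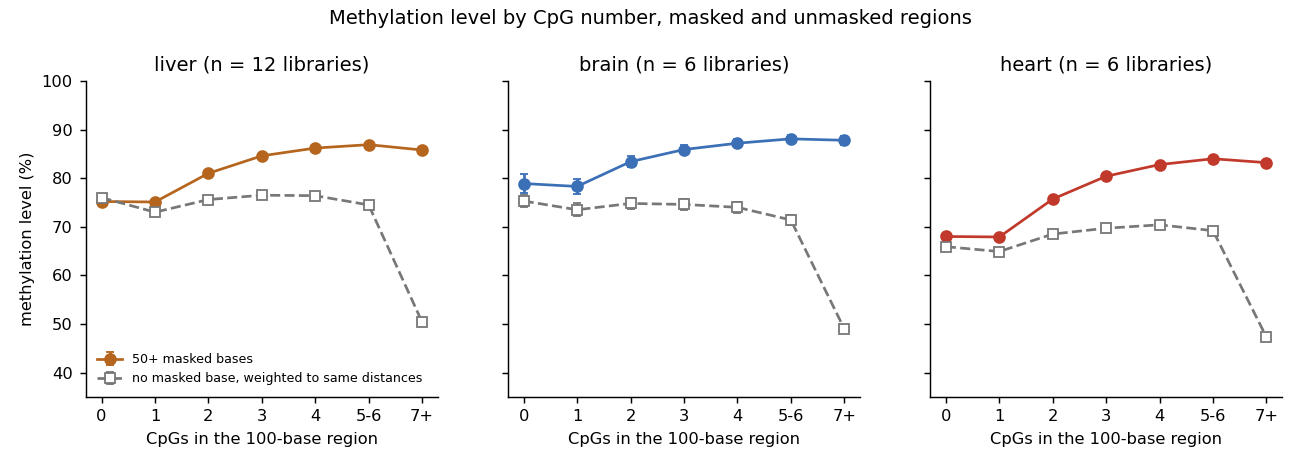
Mean methylation level (%) by the number of CpGs in the tile, for masked tiles (filled) and for unmasked tiles weighted to the same distances (open), with bars of 1 SD over the libraries of each tissue. Masked tiles rise with CpG number up to 5 to 6 CpGs in all 3 tissues, while unmasked tiles with 7 or more CpGs fall to 50.4% in liver, 49% in brain and 47.3% in heart.

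Masked and unmasked tiles had the same median CpG number but differed in the share with 1 CpG and in place. Both had a median of 2 CpGs, and means of 2.58 and 2.80, but 32.8% of masked tiles held 1 CpG against 24.8% of unmasked tiles. Masked tiles lay outside curated transcripts in 68.5% of cases against 42.2%, in introns in 30.7% against 40.2% and in exons in 0.826% against 17.6%, and their median distance to a start was 43319 bp against 28859 bp. By place, liver levels of masked tiles were 80% ± 0.429 between genes, 82.9% ± 0.354 in introns and 79.1% ± 0.419 in exons, where there were 1194 tiles. Unmasked tiles, without weighting, stood at 69.6% between genes, 74.8% in introns and 79.1% in exons in liver. In exons masked and unmasked tiles thus had the same mean in liver, and were close in brain (78.1% and 76.9%) and heart (74.1% and 73.7%). The weighted excess given above did not take place into account. By distance, they ranged only from 79.4% at 2 to 5 kb to 82.2% at 20 to 50 kb, whereas unmasked tiles rose from 64.6% at 2 to 5 kb to 75.9% at 50 to 100 kb. Masked tiles within 2 kb of a start, 7553 tiles that the rule leaves out, stood at 56.4% in liver, 58.4% in brain and 54.9% in heart. Tiles just inside the mask limit, with 50 to 54 masked bases, stood at 78.5% in liver, and tiles just outside it, with 45 to 49, at 76.8%.

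The short motif around the measured CpG went with the level. The motifs CCGG and TCGA, which are the sites of the restriction enzymes MspI and TaqI and read the same on both strands, were searched in each tile. CCGG was present in 53.0% of masked and 56.9% of unmasked tiles, and TCGA in 44.6% and 37.5%. Masked tiles with CCGG alone stood at 85.5% ± 0.283 in liver, 86.9% ± 0.977 in brain and 81.0% ± 0.261 in heart, and those with TCGA alone at 74.3% ± 0.600, 77.7% ± 1.52 and 67.6% ± 0.374 (SD over libraries). The gap was widest where the tile held 1 CpG, so that the motif holds the measured CpG. There masked tiles with CCGG stood at 84.5% in liver and those with TCGA at 66.7%, beside 79.3% in the 4412 tiles with neither.

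The excess of masked over unmasked tiles also differed by motif. At 1 CpG and the same distances it was 7.14 ± 0.235 points in liver, 9.59 ± 0.621 in brain and 8.79 ± 0.153 in heart for tiles with CCGG, positive in every library. For tiles with TCGA it was -0.243 ± 0.243 in liver, positive in 1 of 12 libraries, 2.04 ± 0.415 in brain and 0.332 ± 0.134 in heart. Masked tiles with a single CpG in a TCGA site were thus at the level of their unmasked counterparts in liver within 1 point in each library. With 3 or more CpGs the excess in liver was 15.4 points with CCGG alone, 7.09 with TCGA alone and 11.7 with neither. Weighting the unmasked tiles by both motifs as well, an alternative added after seeing the data, left the excess at 7.53 points in liver, 10.5 in brain and 9.30 in heart (exact sign-flip permutation, adjusted p = 0.0015, 0.031 and 0.031). The cause of the difference between motifs was not tested.

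Copy number in the genome had a small relation to the level. In 54.6% of masked tiles the median 31-base run occurred more than once in the genome, against 1.42% of unmasked tiles. Liver levels were 79.9% ± 0.393 in the 65576 masked tiles with 1 copy, 81.1% ± 0.381 at 10 to under 100 copies, 83.1% ± 0.355 at 100 to under 1000 and 82.2% ± 0.393 at 1000 or more. Brain levels ran from 82.0% to 85.4% over the copy classes and heart levels from 74.6% to 78.6%, with the highest at 100 to under 1000 copies in each tissue. How reads with several equal matches were placed is not stated in the sources used here, and a level of a tile with many copies can hold reads of other copies.

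After bisulphite conversion, an unmethylated CG and a TG in a near copy read alike. For the masked tiles with 1 CpG, the 30-base run around it was therefore counted in the genome with CG and with TG or CA in its place. In 25348 of the 47334 tiles no copy held TG or CA, and liver stood at 74.9%. Where TG or CA made up more than 75% of the copies, in 3579 tiles, liver stood at 73.8%, brain at 77.4% and heart at 66.5%, against 78.0% in brain and 67.8% in heart where there was none. Across these classes liver levels lay between 72.9% and 74.9%, except for 82.1% where TG or CA made up to 25% of the copies.

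The sequence groups differed more than the copy numbers did. Group 1, with 23693 tiles and a mean of 2.77 CpGs, stood at 83.3% ± 0.556 in liver, 84.7% ± 0.999 in brain and 79.8% ± 0.428 in heart (SD over libraries). Its tiles lay nearer to genes than those of groups 2 to 6, with a median distance to a start of 19585 bp against 108312 bp or more. Groups 7 and 8 were likewise near, at medians of 19356 bp and 28284 bp. Group 4 was the highest of the 10 in each tissue, at 88.0% in liver, 89.7% in brain and 82.8% in heart. The CpG-rich groups 3, 6 and 10, with means of 5.46, 4.36 and 6.16 CpGs per tile, stood at 83.0%, 85.9% and 82.9% in liver. Group 9 was the lowest of the 10 in each tissue. Its 1686 tiles, with a mean of 1.21 CpGs, ran from 51.1% to 55.3% over the liver libraries (median 53.7%), from 55.3% to 64.7% over the brain libraries (median 61.3%) and from 44.2% to 45.7% over the heart libraries (median 44.4%). Heart lay below both other tissues in every library, and the highest liver and lowest brain libraries met at 55.3%. In liver 78.7% of its tiles were below 70%, but only 1.07% were below 20%.

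Groups 4 and 9 both hold many copies with few CpGs, but their levels were far apart. Restricted to tiles with exactly 1 CpG, group 4 stood at 88.6% in liver and group 9 at 50.3%, with group 2 at 87.8%, group 1 at 77.7% and group 5 at 56.2%. The share of near copies with TG or CA in place of the CpG had a median of 40.2% in group 9, 42.9% in group 1, 33.3% in group 5 and 22.6% in group 4. The motif CCGG was present in 6.29% of group 9 tiles and 2.14% of group 5 tiles, against 90.9% of group 4 and 85.7% of group 2 tiles. TCGA was present in 90.8% of group 9, 93.7% of group 5 and 6.89% of group 4 tiles. Those 6.89% of group 4 tiles stood at 71.5% in liver, against 88.0% over the whole group. The tiles with TCGA stood at 81.9% against 83.3% in group 1, 85.9% against 87.1% in group 2 and 83.4% against 85.9% in group 6. Each group mean includes these tiles, which made up 68.7% of group 1 and 34.6% of group 6. A large share draws the mean towards them, so that the sizes of these gaps cannot be compared between groups. In group 10 the 20 tiles with TCGA stood at 87.9%, above the 82.9% of the group. The motifs move with the sequence groups here, and their part in the levels of the groups was not tested. Groups 7 and 8, whose typical tiles hold a run of A bases and a CA repeat, were mostly single copy, with a median of 1 copy, and stood at 73.5% and 75.1% in liver. The levels of groups are a description with no test.

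**Figure D3:**
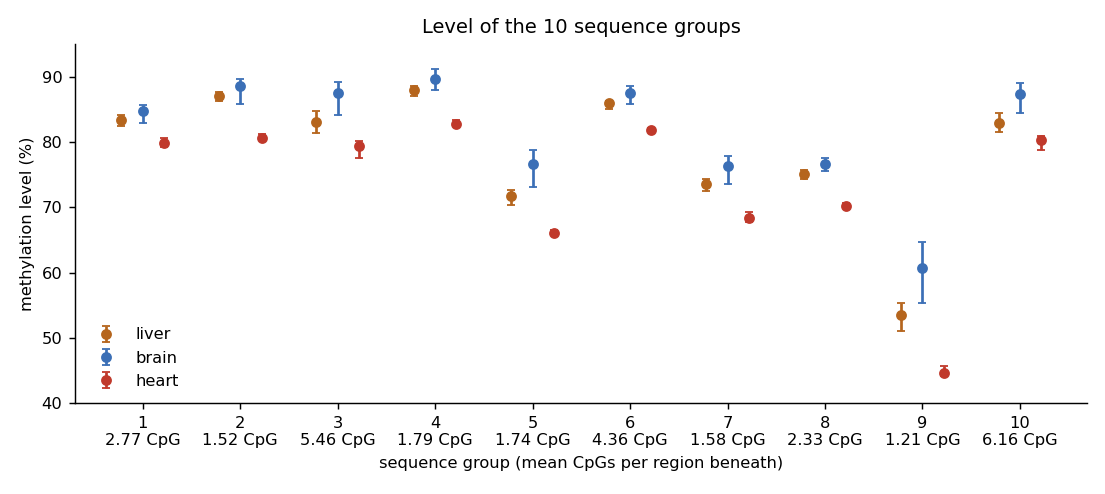
Methylation level (%) of the 10 sequence groups of masked tiles in liver, brain and heart, with points at the mean over libraries and bars from the lowest to the highest library. Group 9 sits lowest, at 53.5% in liver, 60.7% in brain and 44.6% in heart, and heart is lowest and brain highest in each group.

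Tissue differences were rarer in masked than in unmasked tiles. A tile was called when limma, fitted on all 758685 tiles, gave an adjusted p of 0.01 or less and the means differed by 25 points or more. Brain exceeded liver in 4092 masked tiles (2.83%), against 5.98% of unmasked tiles and 4.76% of all tiles tested. Liver exceeded brain in 1492 masked tiles (1.03%), against 7.55% of unmasked and 5.04% of all tiles. Both shares of masked tiles lay below the background of all tiles. Heart exceeded liver in 2039 masked tiles (1.41%; unmasked 3.72%, all tiles 2.87%), and liver exceeded heart in 4154 (2.87%; unmasked 11.2%, all tiles 7.94%). Brain exceeded heart in 8253 masked tiles (5.71%; unmasked 9.77%, all tiles 7.71%), and heart exceeded brain in 432 (0.299%; unmasked 2.70%, all tiles 1.75%). In every direction the share of masked tiles was below that of all tiles. At least 1 call was made in 9.82% of masked, 25.3% of unmasked and 18.8% of all tiles. The median difference over masked tiles was 0.950 points for brain minus liver, -4.33 for heart minus liver and 5.37 for brain minus heart, beside -0.283, -3.50 and 3.00 over all tiles.

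Calls became rarer with CpG number in masked tiles. Brain exceeded heart in 10.6% of masked tiles with 1 CpG and in 0.527% of those with 7 or more, whereas the unmasked shares were 13.3% and 2.95%. Liver exceeded heart in 4.37% of masked tiles with 1 CpG and 0.527% with 7 or more, beside 12.1% and 5.35% of unmasked tiles. Masked tiles made mostly of unique 31-base runs were called more often, at 3.89% for brain over liver and 4.25% for liver over heart, than those with a median of 100 or more copies, at 1.60% and 1.28%. Among the sequence groups, group 9 had the largest share with brain over heart, 233 tiles or 13.8%, followed by group 8 with 8.63% and group 7 with 8.32%. The share over all tiles was 7.71%, so that groups 7 and 8 lay near it. Group 9 had a mean of 1.21 CpGs, and the share of all masked tiles with 1 CpG was 10.6%. In group 10, the most CpG-rich, brain exceeded heart in 11 tiles (0.622%), near the 0.527% of masked tiles with 7 or more CpGs. Heart exceeded brain there in 0 tiles, beside 1.75% of all tiles and 0.299% of masked tiles.

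Called masked tiles often had a called unmasked neighbour. Of the 860 masked tiles with brain over liver that had an unmasked tile within 300 bp, 406 (47.2%) had that tile called in the same direction, against 3.39% for masked tiles that were not called. For heart over liver the shares were 51.4% and 1.96%, and for brain over heart 39.3% and 6.48%. In those 860 tiles the neighbour differed by a median of 22.2 points.

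**Figure D4:**
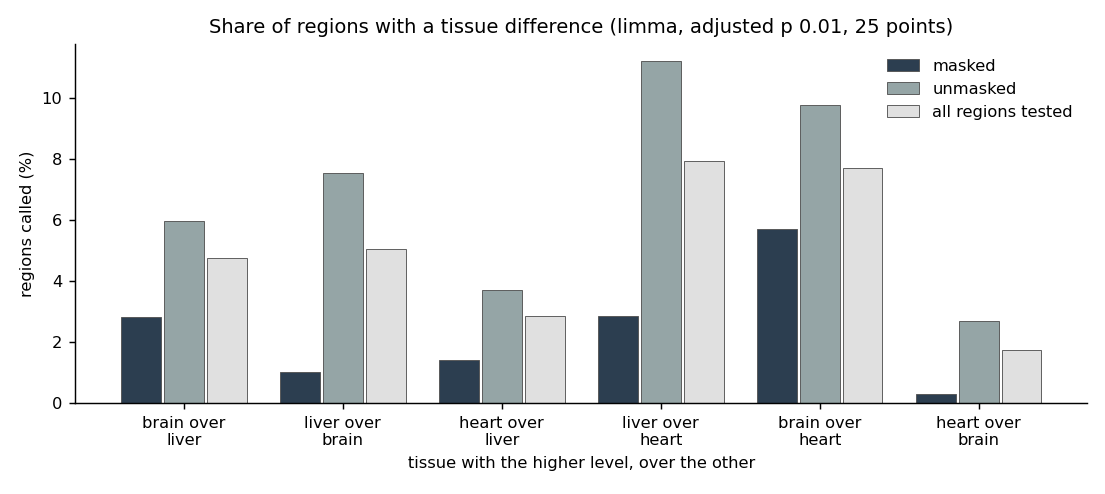
Percentage of tiles called in each direction of the 3 tissue comparisons among masked tiles, unmasked tiles more than 2 kb from a start, and all tiles tested. The masked bar is the shortest in each direction, from 0.299% for heart over brain to 5.71% for brain over heart.

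The masked tiles with the largest differences between tissues, taken among tiles with mostly unique sequence and libraries that did not overlap between the 2 tissues, differed by 65.7 points or more. These tiles were picked for these differences, so that the values describe them. Those shown here are the tile with the widest difference, a tile in an intron that was low in brain, and a tile that was low in liver and belonged to sequence group 1, each on the plus strand with CpGs in capitals.
near Mbl2, chr19:30222701-30222800: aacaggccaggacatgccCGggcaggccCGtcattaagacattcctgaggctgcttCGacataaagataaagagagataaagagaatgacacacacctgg
intron of Pdxp, chr15:78916701-78916800: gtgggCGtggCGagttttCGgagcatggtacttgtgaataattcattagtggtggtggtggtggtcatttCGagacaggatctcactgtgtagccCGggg
near Osgin1, chr8:119430101-119430200: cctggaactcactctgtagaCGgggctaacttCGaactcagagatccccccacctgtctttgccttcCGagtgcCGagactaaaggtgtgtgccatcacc
The tile near Mbl2 (gene ID 17195), which codes for a mannose-binding lectin made in the liver, lay between genes 10128 bp from its start. Its levels ran from 0% to 18.2% in liver (median 6.4%), from 88.0% to 94.1% in brain (median 92.7%) and from 3.2% to 26.3% in heart (median 12.7%). Brain stood apart from both other tissues, by 84.8 ± 3.01 points from liver and 78.6 ± 3.48 from heart (limma, SE, adjusted p = 1.6e-16 and 1e-13). In an intron of Srgap1 (gene ID 117600), a GTPase-activating protein of the Slit and Robo pathway, chr10:121982801-121982900 ran from 7.4% to 22% in liver (median 13.6%), 88.2% to 100% in brain (median 98.1%) and 69.6% to 90.9% in heart (median 82.2%). The unmasked tile 100 bp before it showed the same order, at 12.7%, 92.1% and 65.1%.

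Lower levels in brain were found near Mir99a and in an intron of Pdxp. The tile chr16:77594901-77595000, 3936 bp from the start of the microRNA gene Mir99a (gene ID 387229), ran from 71.4% to 94.7% in liver (median 83.9%), 4.0% to 18.2% in brain (median 10.3%) and 18.2% to 45.5% in heart (median 26.1%). Brain was 72.1 points lower than liver (difference -72.1 ± 3.6, limma, adjusted p = 6.7e-14). In the intron of Pdxp (gene ID 57028), which codes for pyridoxal phosphatase, levels ran from 22.2% to 31% in brain (median 26.9%), whereas liver lay between 91.7% and 100% and heart between 89.7% and 97.7%. Brain did not overlap either tissue there, and the tile was among the first 2 for both liver over brain and heart over brain. A tile in an intron of Kntc1 (gene ID 208628), a kinetochore protein gene, at chr5:123806601-123806700, was also low in brain alone, at 14.6% to 47.9% (median 26.2%), against 90.2% to 100% in liver and 93.3% to 95.2% in heart.

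Lower levels in liver were found near Osgin1 and Spry2. The tile 6947 bp from the start of Osgin1 (gene ID 71839), a gene induced by oxidative stress, ran from 6.4% to 27.1% in liver (median 17.3%), 87.2% to 99.2% in brain and 94.2% to 97.9% in heart (heart minus liver 77.1 ± 2.35, limma, adjusted p = 1.9e-17). The unmasked tile 200 bp after it stood at 16.7% in liver, 80% in brain and 77.8% in heart. The tile chr14:105803901-105804000, between genes and 92819 bp from the start of Spry2 (gene ID 24064), an inhibitor of receptor tyrosine kinase signalling, ran from 7.7% to 20.8% in liver, 81.0% to 90.9% in brain and 87.2% to 95.7% in heart. It belonged to sequence group 7 and just met the rule with 50 masked bases.

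Lower levels in heart were found near Fabp1 and in introns of Heg1 and Grik2. The tile chr6:71212001-71212100, 12122 bp from the start of Fabp1 (gene ID 14080), the fatty acid-binding protein of liver, ran from 61.8% to 80% in liver (median 72.8%), 23.5% to 43.5% in brain (median 31.9%) and 0% to 5.3% in heart (median 1.35%). The 3 tissues did not overlap, and the unmasked tile 200 bp before it stood at 91.7% or more in all of them. In an intron of Heg1 (gene ID 77446), which codes for a receptor needed in heart development, chr16:33709901-33710000 ran from 2.7% to 9.3% in heart, against 54.1% to 92.9% in liver and 71.4% to 81.2% in brain (heart minus liver -70.1 ± 4.19, limma, adjusted p = 2.1e-12). In an intron of Grik2 (gene ID 14806), a kainate receptor subunit of neurons, chr10:49161501-49161600 ran from 9.3% to 18.3% in heart, 87.5% to 91.8% in brain and, more widely, 43.8% to 85.7% in liver.

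**Figure D5:**
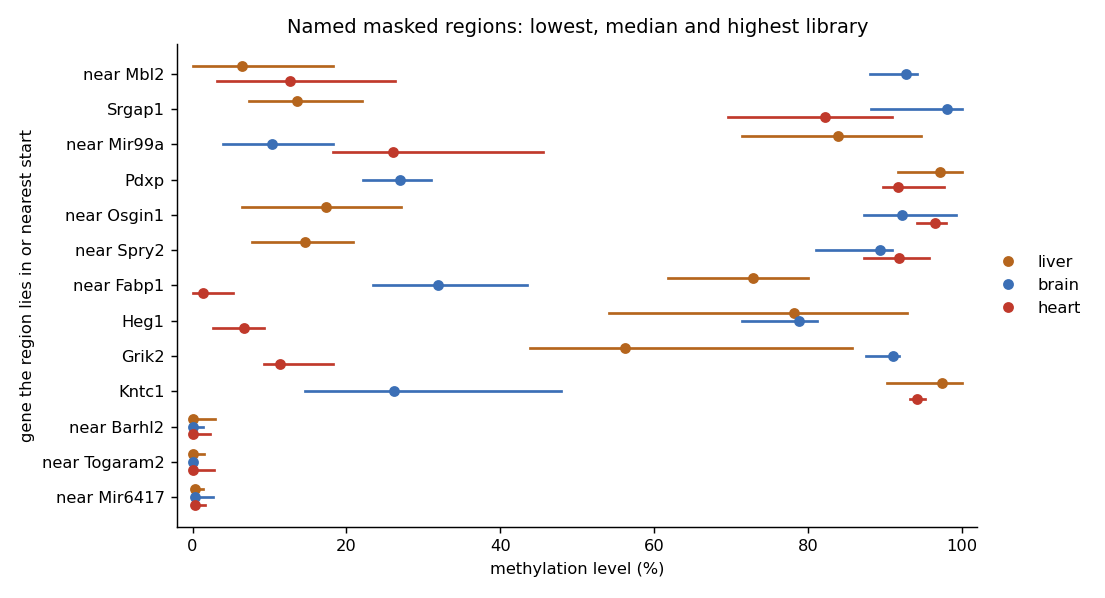
Methylation level (%) of the named masked tiles in liver, brain and heart, with a point at the median library and a line from the lowest to the highest library; labels give the gene a tile lies in or the gene with the nearest start. Each of the tiles from Mbl2 to Kntc1 has at least 1 tissue apart from another, and the 3 lowest tiles lie under 3% in every library.

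Masked tiles with little methylation were rare. Below 20% in all 3 tissues were 850 masked tiles (0.588%), against 15106 unmasked tiles (4.93%), whereas 68.3% of masked and 49.1% of unmasked tiles were at 70% or more in all 3. The 850 low tiles were less fully masked, with 21.6% of them masked over all 100 bases against 48.2% of all masked tiles, and 71.5% had a median of 1 copy. Their median distance to a start was 15586 bp against 43319 bp. Of the 608 low tiles with an adjoining measured tile, 383 (63.0%) adjoined another tile low in all 3 tissues, against 0.788% of all masked tiles with such a neighbour. Neither trait was particular to masked tiles. Of 13464 low unmasked tiles with an adjoining tile, 87.7% adjoined a low one. The median distance of low unmasked tiles to a start was 10969 bp, against 28859 bp for all unmasked tiles. Among low tiles with 3 or more CpGs and mostly unique sequence, the lowest lay at chr5:106574801-106574900, 116635 bp from the start of the homeobox gene Barhl2 (gene ID 104382), with 6 CpGs and levels no higher than 2.9% in any liver, 1.3% in any brain and 2.3% in any heart library. The next were chr17:71663001-71663100, 10161 bp from the start of Togaram2 (gene ID 320159), which was 0% in all 6 brain libraries, and chr5:52115701-52115800, 20217 bp from Mir6417 (gene ID 102466648), which holds 17 CpGs. The latter is a CGC repeat in part, and no library exceeded 2.6% in it. It is shown as an unmethylated CpG-rich repeat, on the plus strand.
near Mir6417, chr5:52115701-52115800: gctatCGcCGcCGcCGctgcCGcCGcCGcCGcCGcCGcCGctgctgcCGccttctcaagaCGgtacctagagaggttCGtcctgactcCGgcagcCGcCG

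The spread between libraries of a tissue was measured for each library as the root mean squared deviation of its tiles from the tissue mean. That mean includes the library itself, so that the spreads of libraries of a tissue are not fully independent. The exact tests below treated them as independent. Over masked tiles it was 6.50 ± 0.452 points in liver, 6.18 ± 0.816 in brain and 6.30 ± 0.622 in heart (SD over 12, 6 and 6 libraries), and none of the 3 pairs of tissues differed past the threshold (exact permutation tests, adjusted p = 0.65, 0.65 and 0.77). Against unmasked tiles of the same CpG numbers and distances, masked tiles varied slightly more in liver, by 0.296 points in 12 of 12 libraries (exact sign-flip permutation, adjusted p = 0.0015), and in heart, by 0.268 points in 6 of 6 (adjusted p = 0.031, exact). In brain they varied less, by -1.41 points in 6 of 6 libraries (adjusted p = 0.031, exact). The brain difference stood apart from that of liver by -1.71 points (exact permutation, adjusted p = 1.6e-04) and from that of heart by -1.68 (adjusted p = 0.0032, exact permutation), while liver and heart differed by -0.0276 (adjusted p = 0.69, exact permutation). The spread over unmasked tiles was 7.59 points in brain against 6.21 in liver and 6.03 in heart. With mostly unique tiles alone the differences were 0.0137 points in liver, -1.37 in brain and 0.0525 in heart, and none of the 3 was past the threshold (exact sign-flip permutation, adjusted p = 0.67, 0.094 and 0.094). The brain difference kept its size there, whereas those of liver and heart shrank. Before adjustment, 6 libraries cannot give an exact sign-flip p below 0.031. Among tiles with a tissue mean of 70 to 90%, the differences were 0.531 points in liver, -0.808 in brain and 0.353 in heart (exact sign-flip permutation, adjusted p = 0.0015, 0.031 and 0.031). Between neighbouring tiles the brain difference was -0.209 points, short of the threshold (adjusted p = 0.28, exact sign-flip permutation). The liver and heart differences between neighbours were 0.418 points in 12 of 12 libraries and 0.326 in 6 of 6.

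The spread of masked tiles fell with CpG number in each tissue. It was 7.51 points with 1 CpG and 5.36 with 7 or more in liver, 7.45 and 4.06 in brain, and 7.41 and 4.52 in heart. In the class with 7 or more CpGs masked tiles exceeded unmasked tiles by 1.45 points in liver and 0.905 in heart, whereas in brain they varied less, by -1.25 points, in 6 of 6 libraries.

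The masked tiles with the largest spread in liver fell into separate levels. At chr8:114089801-114089900, between genes and 43674 bp from the start of Nudt7 (gene ID 67528), a peroxisomal coenzyme A hydrolase gene, 6 liver libraries lay between 17.1% and 30.8% and the other 6 between 75.8% and 91.1%. Brain lay between 72.0% and 96.9% and heart between 67.9% and 74.5%, so that only liver was divided. The next, chr17:80772001-80772100, 43976 bp from the start of the kinase gene Map4k3 (gene ID 225028), had 6 liver libraries from 18.4% to 40.4% and 6 from 80.6% to 91.7%, with brain from 85.1% to 100% and heart from 82.9% to 96.6%. The columns carry no gender, and neither division was set against it here. The tile near Nudt7 holds a single CpG, shown with the tile near Map4k3 for their place in the sequence.
near Nudt7, chr8:114089801-114089900: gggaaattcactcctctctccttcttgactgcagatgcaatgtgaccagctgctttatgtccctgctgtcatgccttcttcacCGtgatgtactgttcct
near Map4k3, chr17:80772001-80772100: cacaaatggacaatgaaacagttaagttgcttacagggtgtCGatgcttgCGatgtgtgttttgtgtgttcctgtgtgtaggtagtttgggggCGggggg

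In brain and heart the widest spread came from libraries at 0%. In an intron of Cnnm1 (gene ID 83674), a metal transport mediator gene, chr19:43469501-43469600 was at 0% in 3 brain and 3 heart libraries, while the other 3 ran from 53.8% to 83.8% in brain and from 62.1% to 78.3% in heart. In an intron of Uba2 (gene ID 50995), a subunit of the SUMO-activating enzyme, chr7:34154301-34154400 was at 0% in 2 brain and 2 heart libraries and at 57.1% or more in the others. No liver library was at 0% at either tile, with lowest values of 31.6% and 56.9%. Both tiles hold 1 CpG, and the unmasked tile 200 bp after each stood at 89.0% or more in all 3 tissues. Whether the libraries at 0% in brain and heart came from the same mice cannot be read from the columns. The tile chr6:101753601-101753700, 20549 bp from the start of Gm9871 (gene ID 207157), was at 18.8% and 31.8% in 2 brain libraries and at 88.2% or more in the other 4.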

How the data were processed

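DNA of liver, brain and heart was assayed by enhanced RRBS (methyl miniseq), and a commercial service mapped the reads by a procedure that is not published. The submitters' processing notes name Bismark, methylKit and mm10. The authors combined CpG calls in methylKit into tiles of 100 bp covered by more than 10 reads in each library and deposited methylation levels per tile and library as a fraction between 0 and 1, with no read counts or coverage, so that the depth and precision of a level are unknown. Fractions were multiplied into percent. Columns were assigned to tissues only. Soft-masked bases, CpGs and starts (curated RefSeq) were read from GRCm38.p6, the mm10 assembly; 99.88% of common tiles held a CpG. Copies were exact 31-base runs over chromosomes 1 to 19, X and Y.

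Levels were compared with exact sign-flip or permutation tests over libraries, adjusted by Benjamini-Hochberg, and tile calls used limma 3.58.1 in R 4.3.3 on percent levels of all common tiles. Scripts ran in Python 3.11.15 and were tested on simulated data. Named tiles were, outside chromosome 18, the 2 with the widest difference for each of 6 directions (libraries not overlapping, mostly unique 31-base runs), the 3 lowest with 3 or more CpGs, and the 2 with the largest spread per tissue; of adjoining tiles only the first was named. The members, lists and tests were chosen with earlier results of these data known. Alternatives were other mask limits, distances, start sets, uniqueness, weightings, medians, limma scales and thresholds, and each library left out; weighting by motifs and pairs of neighbouring tiles were added after seeing the data. Repeat classes and genders were not analysed here, and 1 gene is not reported here.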

Additional observations from a re-analysis of the deposited data

Results flagged for a closer look

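In brain, the highest of the 6 libraries in the excess of masked over unmasked tiles, at 11.3 points, stood apart from the other 5 (9.75 to 10.3), and so did 1 brain library in the spread over masked tiles, at 7.77 points against 5.65 to 6.28. They were different libraries. In heart the highest masked level, 76.2%, stood apart from the other 5 (75.5% to 75.6%). The gaps differ in size relative to the range of their group, and the limit that each of them passed is one that chance passes in about 1 in 20 groups.

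The excess of masked tiles differed between tissues when tested directly, by 3.13 points between brain and liver, 1.71 between heart and liver and 1.42 between brain and heart (exact permutation tests, given above). The difference between brain and heart was 0.233 as medians over tiles (adjusted p = 0.37, exact permutation) and turned round, to -0.416, between neighbouring tiles (adjusted p = 0.013, exact permutation). The spread of masked against unmasked tiles differed by -1.71 points between brain and liver and by -1.68 between brain and heart.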

How the results depend on the processing

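The excess of masked over unmasked tiles kept its direction in each tissue under every alternative run, and past the threshold except where a brain or heart library was left out, since 5 libraries cannot give an exact p below 0.0625. Leaving out single libraries gave an excess of 10 to 10.3 points in brain and 8.79 to 8.82 in heart, and a spread difference of -1.60 to -1.13 in brain and 0.228 to 0.311 in heart. Masked levels moved to 81.3% (liver) and 76.1% (heart) with all 100 bases masked, to 79.9% and 74.6% with mostly unique 31-base runs, to 87.7% (liver), 88.7% (brain) and 82.3% (heart) as medians over tiles, and to 75% (heart) over the tiles of its own table. With mostly unique runs the spread differences were 0.0137 (liver), -1.37 (brain, adjusted p = 0.094, exact) and 0.0525 (heart), none past the threshold, although the brain value stayed close to the -1.41 of the main setting. The spread over masked tiles, brain minus heart, had no stable sign, at 0.119 with mostly unique runs, 0.601 at levels of 70 to 90% and -0.535 to 0.131 with libraries left out. Brain minus liver, -0.328 with all libraries, ran from -0.737 to -0.190 with libraries left out and passed the threshold only without the first brain library (-0.737, adjusted p = 0.010, exact permutation). The excess in brain minus that in heart was 0.233 as medians (adjusted p = 0.37, exact permutation) and -0.416 between neighbours, where the brain spread difference was -0.209; the cause was not tested. Without a CpG, the excess became 1.38 in liver, 4.95 in brain and 4.25 in heart with mostly unique runs, and -4.60, 1.84 and -0.648 with all bases masked. At a limit of 10 points, calls among masked tiles rose to 9.75% (brain over liver), 4.50% (liver over brain), 2.81% (heart over liver), 18.7% (liver over heart), 22.9% (brain over heart) and 1.26% (heart over brain). The shares of unmasked and of all tiles were not computed at that limit. Whether masked tiles stay below them there was therefore not tested. With all bases masked they were 0.479% (liver over brain), 0.725% (heart over liver), 1.67% (liver over heart) and 0.125% (heart over brain), and with mostly unique runs 1.61% (liver over brain), 2.21% (heart over liver) and 0.477% (heart over brain). No paired analysis was possible because the columns carry no mouse numbers. A minimum of coverage could not be tried.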

Other observations

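Genes with the most called masked tiles inside their transcripts were looked up after the values were seen, outside chromosome 18, so that their counts were high by choice. Genes with more tiles also reach high counts more easily, and no test was made. The shares called over all tiles are the background, at 2.87% for heart over liver, 4.76% for brain over liver, 7.71% for brain over heart, 5.04% for liver over brain and 7.94% for liver over heart. In Aldh2 (gene ID 11669), the mitochondrial aldehyde dehydrogenase, 6 of 7 masked tiles were called with heart over liver, beside 2 of 23 unmasked tiles. With brain over liver, 6 of 7 masked and 7 of 23 unmasked tiles of Aldh2 were called. Its masked tiles had a mean of 42.9% in liver, 87.3% in brain and 84.4% in heart. In Fdft1, squalene synthase, 5 of 6 masked and 4 of 9 unmasked tiles were called with heart over liver, at 49.4% in liver and 91.0% in heart over the masked tiles. In Foxa3, a transcription factor of hepatocytes, 5 of 5 masked and 3 of 10 unmasked tiles were called with brain over liver. The masked tiles of Foxa3 had a mean of 40.5% in liver, with libraries from 24.5% to 56.1%, and of 82.0% in brain, with libraries from 78.3% to 84.2%.

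With brain over heart, Lrp1b, a lipoprotein receptor-related gene, had 17 of 100 masked and 21 of 62 unmasked tiles called. Csmd1 had 14 of 58 masked and 18 of 88 unmasked tiles called, and Fgf14 had 13 of 50 masked and 1 of 4 unmasked. Masked levels in Lrp1b were 80.7% in liver, 87.3% in brain and 74.8% in heart. Where liver was the higher tissue, Meis1, a homeobox gene, had 4 of 6 masked and 11 of 30 unmasked tiles called over brain, at 88.3% in liver and 64.2% in brain over the masked tiles. Pdgfb, a platelet-derived growth factor gene, had 4 of 4 masked and 6 of 10 unmasked tiles called over heart, at 77.9% in liver and 35.6% in heart over the masked tiles.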
